A study of Mus musculus with 24 samples.

Results

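A set of 6 genes known from pyramidal neurons of hippocampal field CA1, *Wfs1*, *Fibcd1*, *Pou3f1*, *Mpped1*, *Spink8* and *Man1a*, was followed through bulk mRNA sequencing of the hippocampus of 24 female mice. They were taken by gene name from a table of 46983 genes. All 6 were found, and all 6 were among the 16209 genes with enough reads to be tested. The mice were of the C57BL/6 strain and formed 4 groups of 6, namely Fkbp5lox/lox control, Fkbp5lox/lox ELS, Fkbp5Nex control and Fkbp5Nex ELS. Every mouse carried loxP-flanked *Fkbp5* alleles. Fkbp5lox/lox mice had no Cre recombinase and served as wild types, while in Fkbp5Nex mice Cre was expressed from the *Nex* locus, whose current symbol is *Neurod6*, from embryonic life onwards. This Cre line removes *Fkbp5*, which encodes the steroid receptor co-chaperone FKBP51, from glutamatergic forebrain neurons, those of CA1 included, but spares the dentate gyrus, so that other cells of the sample keep the gene. Early life stress (ELS) was limited bedding and nesting material in the first days after birth, and control litters had standard housing. Behavioural testing began at 6 months of age. Tissue was punched from frozen brain with a tool of 1 mm diameter at dorsal and at ventral levels of the hippocampus, so that the library of a mouse holds neurons, glia and vessels of several fields.

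CA1 pyramidal neurons are excitatory output cells of the hippocampus. They receive the Schaffer collaterals of CA3, project to the subiculum and to cortex, and are known for a role in spatial memory. Each of the genes is known for high expression in this field, although none is expressed there exclusively. *Wfs1* encodes wolframin, a membrane protein of the endoplasmic reticulum that is mutated in Wolfram syndrome. *Fibcd1* encodes a membrane receptor that binds acetylated sugars, and *Man1a* encodes a Golgi mannosidase that trims N-linked glycans. *Pou3f1* encodes a transcription factor with a POU domain. *Spink8* encodes a member of the Kazal family of serine peptidase inhibitors, and *Mpped1* a protein with a metallophosphoesterase domain.

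The genes lie on 6 different chromosomes in GRCm38 (GENCODE vM21 gene models). *Wfs1* (ENSMUSG00000039474) is on the minus strand of chromosome 5 from 36966104 to 36989205. *Fibcd1* (ENSMUSG00000026841) is on the minus strand of chromosome 2 from 31813290 to 31846005. *Pou3f1* (ENSMUSG00000090125), a gene of 1 exon, is on the plus strand of chromosome 4 from 124656807 to 124660655. Whether the reads were counted on these gene models is not given in the sources used here. *Mpped1* (ENSMUSG00000041708) is on the plus strand of chromosome 15 from 83779467 to 83858494. *Spink8* (ENSMUSG00000050074) is on the plus strand of chromosome 9 from 109812280 to 109826633. *Man1a* (ENSMUSG00000003746) is on the minus strand of chromosome 10 from 53904785 to 54076609. *Wfs1*, *Fibcd1*, *Mpped1* and *Spink8* overlap no other annotated gene. An antisense gene, *Gm2164*, shares 330 exonic bases with *Pou3f1*, and *Gm16998*, on the opposite strand, shares 147 with *Man1a*. Whether the counting used strand is not given in the sources used here, so values of *Pou3f1* and *Man1a* carry that uncertainty, although the overlapping genes held only 413 and 215 reads summed over the 24 mice.

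Promoter sequence was found in RefSeq (GRCm38.p6) for 4 of the 6 genes, with a pair of starts for *Mpped1*, and was read here from 250 bases before to 50 bases after each start. The sequences of *Fibcd1* and *Mpped1* are shown because these genes varied most closely together, and that of *Wfs1* because it did not vary with them. The stretches end at the start or at the nearest exon of vM21, and of *Wfs1*, whose upstream window lies largely in an exon, only the 30 bases around a motif are given. They run 5′ to 3′ on the strand of the gene, and capitals mark matches to an E-box.
*Fibcd1*, minus strand, chr2:31846006-31846255: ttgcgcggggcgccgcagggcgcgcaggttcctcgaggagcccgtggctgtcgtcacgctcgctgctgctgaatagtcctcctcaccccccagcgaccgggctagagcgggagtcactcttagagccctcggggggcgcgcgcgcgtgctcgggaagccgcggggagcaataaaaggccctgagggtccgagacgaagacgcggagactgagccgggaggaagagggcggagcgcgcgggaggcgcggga
*Mpped1*, first start, plus strand, chr15:83779773-83779981: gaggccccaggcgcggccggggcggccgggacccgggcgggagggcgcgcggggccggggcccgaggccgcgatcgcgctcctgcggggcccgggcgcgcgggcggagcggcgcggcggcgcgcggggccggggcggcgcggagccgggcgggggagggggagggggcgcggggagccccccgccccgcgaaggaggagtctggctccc
*Mpped1*, second start, plus strand, chr15:83784579-83784828: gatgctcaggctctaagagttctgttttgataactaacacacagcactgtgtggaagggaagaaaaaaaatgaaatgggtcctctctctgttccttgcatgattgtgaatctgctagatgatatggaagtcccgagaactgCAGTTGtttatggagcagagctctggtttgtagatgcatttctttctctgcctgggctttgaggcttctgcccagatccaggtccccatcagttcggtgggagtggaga
*Wfs1*, E-box, minus strand, chr5:36989135-36989164: ccctctcgccgcCATCTGtcctcctggcga
The E-box, CANNTG, is the sequence that basic helix-loop-helix proteins such as NEUROD and TCF4 bind. It was found once in *Wfs1*, 170 bases before the start, and once before the second start of *Mpped1*, 109 bases from it. *Fibcd1*, *Man1a* and the first start of *Mpped1* held no match in their 300 bases, while 72.3% of 32851 mouse promoters of that length did. The octamer ATGCAAAT, a steroid receptor half-site AGAACA, the cyclic AMP response element TGACGTCA and TATAAA were searched on both strands as well. None matched in any of the 5 windows, and their shares among all promoters were 1.74%, 19.0%, 1.79% and 13.6%. No searched motif was thus shared by *Fibcd1* and *Mpped1* in these windows. The windows were rich in G and C, with 74.3% in *Fibcd1*, 72.7% in *Man1a*, 70.0% in *Wfs1* and 89.3% at the first start of *Mpped1*, but 47.3% at its second start, against a median of 52.7% over all promoters.

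Between 18347283 and 26555623 reads were counted per mouse, and the 6 genes had from 67 reads (*Spink8*) to 9503 reads (*Fibcd1*) in a mouse. Levels are given as CPM, the read count of a gene relative to the library total, after TMM scaling, which corrects library totals for differences in composition. *Fkbp5*, the deleted gene, had 56.5 ± 5.27 CPM in Fkbp5lox/lox mice and 14.01 ± 5.47 CPM in Fkbp5Nex mice (SD, n = 12 each), and the ranges of the genotypes did not overlap. The log2 fold change of *Fkbp5* was -2.04 (standard error 0.10, Benjamini-Hochberg adjusted p = 5.75e-12 by edgeR's quasi-likelihood F test). *Neurod6*, the Cre locus, had 256.9 ± 64.6 CPM in Fkbp5lox/lox and 141.8 ± 47.0 CPM in Fkbp5Nex mice (SD, n = 12 each). Of the libraries, that of Fkbp5lox/lox ELS mouse 8 stood apart. It had the lowest level of the 24 mice in *Fibcd1*, *Pou3f1*, *Mpped1*, *Spink8* and *Man1a*, while its *Wfs1* level ranked 21 from the highest. It also had the highest score of all mice for markers of dentate gyrus granule cells (mean z-score 2.12) and of the thalamus (2.07), and the lowest for interneurons (-1.13). Many results are given with and without this mouse. The genes most like each member, the spread within marker lists and the medians of the lists are given over all 24 mice only.

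*Fibcd1* had the widest range. In Fkbp5lox/lox controls its level ran from 83.5 to 434.1 CPM with a median of 127.1, and in Fkbp5lox/lox ELS mice from 10.7 to 194.9 CPM with a median of 123.7. In Fkbp5Nex controls it ran from 43.4 to 217.7 CPM with a median of 137.2, and in Fkbp5Nex ELS mice from 139.8 to 231.8 CPM with a median of 183.6. The groups overlapped, the highest mouse was a Fkbp5lox/lox control, the lowest was mouse 8, and the Fkbp5Nex ELS mice lay closest together. The means were 176.0 ± 129.0, 118.3 ± 67.9, 131.8 ± 76.6 and 188.6 ± 37.0 CPM in the same order (SD, n = 6 each). Without mouse 8 the mean of the Fkbp5lox/lox ELS group was 139.9 ± 47.7 CPM (SD, n = 5).

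*Mpped1* followed a similar pattern. It ran from 93.3 to 280.8 CPM with a median of 114.3 in Fkbp5lox/lox controls, and from 32.5 to 256.0 CPM with a median of 108.9 in Fkbp5lox/lox ELS mice. It ran from 45.6 to 204.7 CPM with a median of 131.3 in Fkbp5Nex controls, and from 124.9 to 189.5 CPM with a median of 150.1 in Fkbp5Nex ELS mice. The 4 groups overlapped, and again the Fkbp5Nex ELS mice were nearest to each other. Mean levels of *Mpped1* were 145.2 ± 71.3, 121.2 ± 75.4, 128.8 ± 67.3 and 152.6 ± 22.4 CPM (SD, n = 6 each), and 138.9 ± 68.9 CPM in Fkbp5lox/lox ELS mice without mouse 8 (SD, n = 5).

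*Pou3f1* spread widest in Fkbp5lox/lox ELS mice. It ran from 14.3 to 29.9 CPM (median 22.8) in Fkbp5lox/lox controls, from 3.52 to 36.7 CPM (median 12.3) in Fkbp5lox/lox ELS mice, from 6.80 to 34.6 CPM (median 18.3) in Fkbp5Nex controls and from 14.7 to 26.6 CPM (median 23.7) in Fkbp5Nex ELS mice. Both the lowest and the highest mouse were thus in the Fkbp5lox/lox ELS group, and every group overlapped the others. The group means of *Pou3f1* were 21.9 ± 6.53, 17.2 ± 12.5, 19.5 ± 9.45 and 22.3 ± 4.80 CPM (SD, n = 6 each), with 19.9 ± 11.8 CPM in the Fkbp5lox/lox ELS group without mouse 8 (SD, n = 5).

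*Spink8* had its lowest group mean in Fkbp5lox/lox ELS mice. Its level ran from 16.7 to 26.1 CPM (median 22.1) in Fkbp5lox/lox controls and from 2.48 to 24.5 CPM (median 15.3) in Fkbp5lox/lox ELS mice. It ran from 8.91 to 28.1 CPM (median 22.5) in Fkbp5Nex controls and from 16.7 to 27.8 CPM (median 20.6) in Fkbp5Nex ELS mice. Mice of the Fkbp5lox/lox ELS group lay low in this gene, but their range overlapped that of each other group. The means were 21.2 ± 3.82, 13.8 ± 8.00, 21.0 ± 7.53 and 21.3 ± 4.26 CPM (SD, n = 6 each), and without mouse 8 the second was 16.0 ± 6.46 CPM (SD, n = 5).

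*Man1a* and *Wfs1* varied least. *Man1a* had 47.8 ± 7.11 CPM in Fkbp5lox/lox controls (38.2 to 56.5, median 46.9), 41.0 ± 17.1 CPM in Fkbp5lox/lox ELS mice (17.1 to 66.8, median 43.3), 48.7 ± 10.3 CPM in Fkbp5Nex controls (37.6 to 62.1, median 47.9) and 46.3 ± 7.44 CPM in Fkbp5Nex ELS mice (36.7 to 58.1, median 46.1; SD, n = 6 each). Without mouse 8 the Fkbp5lox/lox ELS mean was 45.8 ± 14.02 CPM (SD, n = 5), and all groups overlapped. *Wfs1* had 43.5 ± 10.4 CPM in Fkbp5lox/lox controls (34.4 to 63.4, median 40.0), 43.7 ± 7.95 CPM in Fkbp5lox/lox ELS mice (37.5 to 58.5, median 39.9), 47.2 ± 8.82 CPM in Fkbp5Nex controls (33.6 to 59.0, median 47.6) and 47.0 ± 8.17 CPM in Fkbp5Nex ELS mice (36.5 to 57.7, median 46.9; SD, n = 6 each). The 4 ranges of *Wfs1* nearly coincided, and mouse 8, at 37.5 CPM, was not set apart from the other mice in it.

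**Figure D1:**
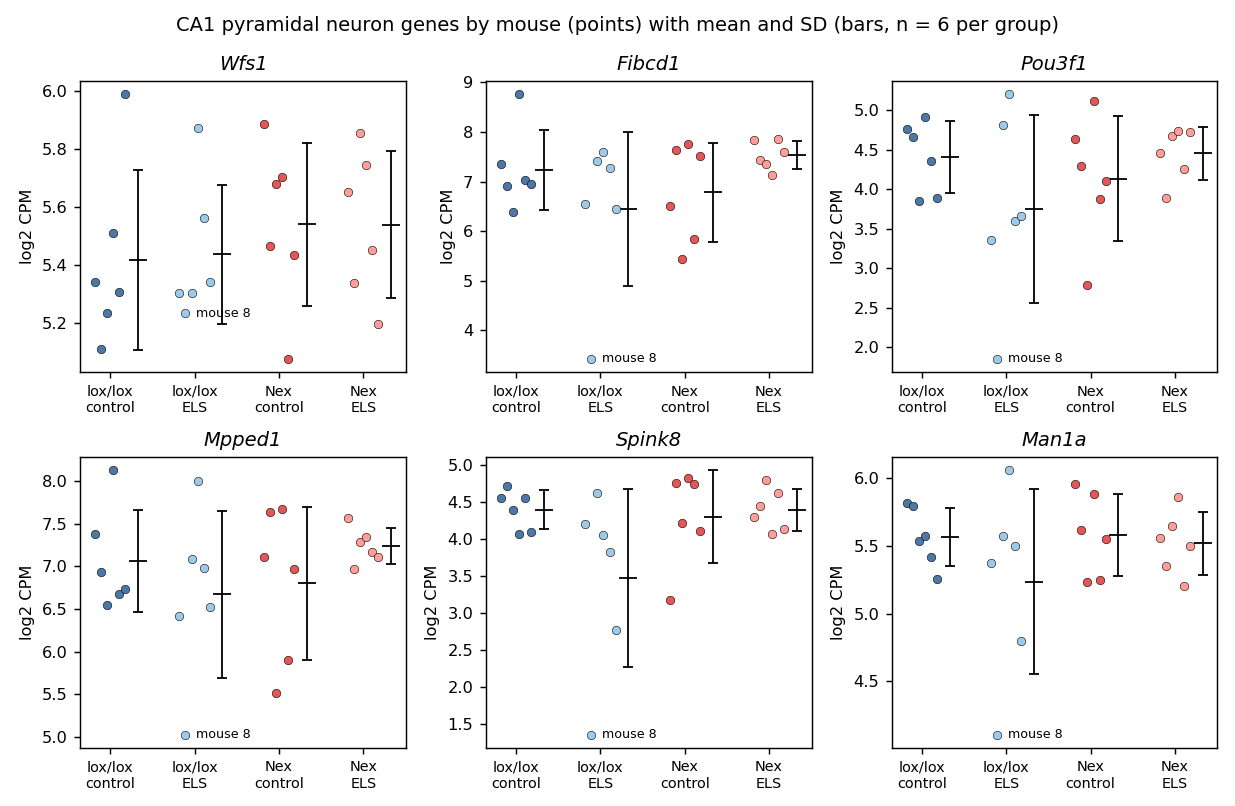
Each point is the level of a gene in a mouse (log2 CPM, TMM-scaled, separate vertical scale per gene), by group, and the bars give mean and SD (n = 6 per group). The groups overlap in all 6 genes, and mouse 8 of the Fkbp5lox/lox ELS group is the lowest point in all but *Wfs1*.

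Levels were compared between genes per kilobase of exon, using vM21 exon lengths. *Fibcd1* had 32.3 ± 17.7 and *Mpped1* 31.9 ± 13.97 CPM per kilobase (SD, n = 24), and the order of this pair differed between mice, with *Fibcd1* above *Mpped1* in 10 of 24. *Spink8* followed with 23.5 ± 8.09 CPM per kilobase and lay under *Mpped1* in 18 of 24 mice. These 3 genes were not separated beyond the spread between mice. *Wfs1* had 12.0 ± 2.24 CPM per kilobase, below *Spink8* in 21 of 24 mice, and *Pou3f1* had 5.26 ± 2.21 CPM per kilobase, below *Wfs1* in all 24. *Man1a*, at 4.76 ± 1.13 CPM per kilobase (SD, n = 24), was below *Pou3f1* in 13 of 24 mice, so the last pair could not be ordered.

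The design asks whether the deletion of *Fkbp5* in glutamatergic neurons, ELS or their combination changes expression. No member passed an FDR of 0.02 in any of 5 comparisons by edgeR's quasi-likelihood F test, by DESeq2's Wald test or with each mouse left out in turn. In the edgeR test, 0 of 6 were called for genotype, where 0.117% of the 16209 tested genes were called (0.00617% higher and 0.111% lower in Fkbp5Nex mice), and 0 of 6 had an unadjusted p under 0.05, where 11.5% of all genes did. For ELS over both genotypes, the interaction, ELS within Fkbp5lox/lox mice and ELS within Fkbp5Nex mice, 0% of all genes were called. At an unadjusted p under 0.05, 0 of 6 passed in each of these comparisons, against 3.56%, 4.02%, 4.86% and 2.8% of all genes. DESeq2 called 1 gene of the whole table, no member, for ELS in Fkbp5lox/lox mice and 0 in the other 3, and 0 of 6 members had an unadjusted p under 0.05 with it in any comparison. Under the other settings up to 3 of 6 did, in the interaction without Fkbp5lox/lox control mouse 74, up to 2 for genotype and for ELS in Fkbp5Nex mice, and up to 1 in the other comparisons. The shares of all genes with such a p under these settings were not computed. Whether these counts of members exceed them cannot be told. In bulk tissue, fewer cells of a type and less RNA per cell cannot be told apart, which applies to every level given here.

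For genotype (Fkbp5Nex minus Fkbp5lox/lox, mean over both rearing conditions), the median log2 fold change of the 6 genes was -0.03, beside -0.001 over all tested genes, with 3 positive and 3 negative values. *Wfs1* was measured most precisely, at 0.04 (95% interval -0.13 to 0.20). *Fibcd1* was at -0.22 (-0.60 to 0.15), *Mpped1* at -0.16 (-0.39 to 0.06) and *Pou3f1* at -0.08 (-0.51 to 0.36). These 3 values turned positive in a fit without surrogate variables, which stand for variation between mice beyond the groups. *Spink8* was at 0.04 (-0.20 to 0.29) and *Man1a* at 0.01 (-0.20 to 0.21). The intervals thus bound the difference most closely in *Wfs1* and *Man1a*, and least closely in *Pou3f1*.

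Among mice that carried *Fkbp5*, the log2 fold change of ELS against control had a median of -0.03 over the 6 genes, beside 0.003 over all tested genes. *Spink8* had the lowest value, -0.33 (95% interval -0.69 to 0.03; Benjamini-Hochberg adjusted p = 0.95 by edgeR). Without mouse 8 it was -0.57 (adjusted p = 0.85 by edgeR), in a fit that also estimated the surrogate variables again. *Pou3f1* was at -0.16 (-0.83 to 0.51) and *Fibcd1* at -0.09 (-0.65 to 0.48). *Wfs1* was at 0.11 (-0.15 to 0.36), *Mpped1* at 0.05 (-0.30 to 0.40) and *Man1a* at 0.03 (-0.29 to 0.34), and of these *Mpped1* and *Man1a* turned to -0.10 and -0.09 without mouse 8. Without surrogate variables 5 of the 6 values were negative, with *Spink8* at -0.63, *Fibcd1* at -0.57, *Pou3f1* at -0.36, *Mpped1* at -0.26 and *Man1a* at -0.23, and *Wfs1* at 0.01, none of them called.

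In Fkbp5Nex mice, 5 of the 6 genes had a positive log2 fold change for ELS, with a median of 0.24, beside 0.004 over all tested genes. *Fibcd1* was highest at 0.56 (95% interval -0.01 to 1.13). *Mpped1* was at 0.33 (-0.02 to 0.67) and *Pou3f1* at 0.31 (-0.37 to 0.98). The intervals of all 3 genes include 0. *Wfs1* was at 0.18 (-0.07 to 0.43), *Spink8* at 0.02 (-0.34 to 0.37) and *Man1a* at -0.05 (-0.37 to 0.27). The median of the 8 further CA1 genes in the same comparison was 0.14 and that of 10 dentate gyrus genes 0.20, with all 18 positive and 0 called.

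The interaction, which is the ELS difference in Fkbp5lox/lox mice minus that in Fkbp5Nex mice, was negative in 5 of 6 genes, with a median of -0.31 beside 0.00002 over all tested genes. It shares its mice with the comparisons above. Other lists had mostly negative values too, namely further CA1 (7 of 8, median -0.25), dentate gyrus (9 of 10, -0.37) and choroid plexus genes (6 of 6, -0.74). The medians of the thalamic list (0.23, with 2 of 9 negative) and of CA2 and CA3 genes (0.05, with 6 of 14 negative) were positive. *Fibcd1* was at -0.65 (95% interval -1.43 to 0.13), and at -0.74 without mouse 8. *Pou3f1* was at -0.47 (-1.38 to 0.45), *Spink8* at -0.34 (-0.84 to 0.15) and *Mpped1* at -0.28 (-0.75 to 0.19). The intervals of all 4 include 0 and are wide, spanning about 1 log2 unit or more. *Wfs1* was at -0.07 (-0.41 to 0.27) and *Man1a* at 0.08 (-0.36 to 0.51). Without surrogate variables *Fibcd1* was at -1.09, *Spink8* at -0.65, *Pou3f1* at -0.55 and *Mpped1* at -0.51, and again 0 of 6 were called.

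For ELS over both genotypes, *Fibcd1* was at 0.24 (95% interval -0.17 to 0.65), *Mpped1* at 0.19 (-0.07 to 0.44), *Wfs1* at 0.14 (-0.04 to 0.33) and *Pou3f1* at 0.07 (-0.42 to 0.57) on the log2 scale. *Spink8* was at -0.16 (-0.42 to 0.10) and *Man1a* at -0.01 (-0.24 to 0.22). The median was 0.11, beside 0.003 over all tested genes.

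**Figure D2:**
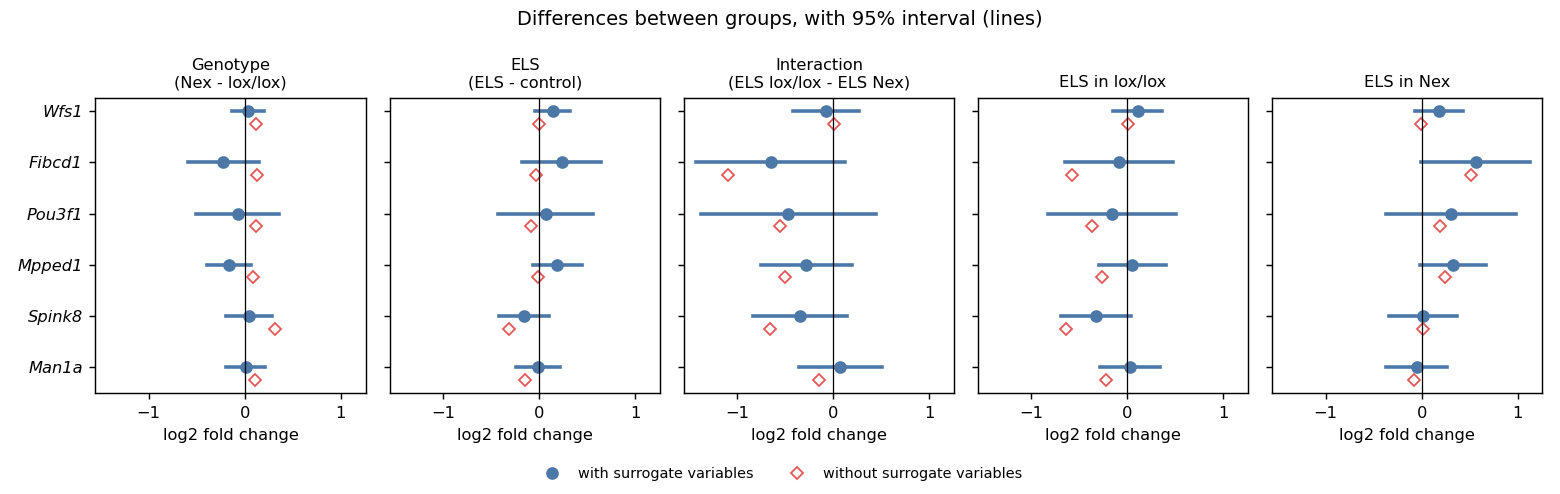
Log2 fold changes of the 6 genes in 5 comparisons, with 95% intervals from the edgeR fit with surrogate variables (filled circles, lines) and values without surrogate variables (open diamonds). Every interval includes 0, and leaving the surrogate variables out moves *Fibcd1*, *Pou3f1* and *Mpped1* across 0 for genotype.

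Values of the other marker lists are given beside the members for the genotype comparison. The lists were chosen with earlier results of these data known, so calls within them are a description and no independent support. Of 10 dentate gyrus granule cell genes, 4 were called lower in Fkbp5Nex mice and 0 higher. All 10 had negative values, with a median log2 fold change of -0.48. *Prox1*, the transcription factor that marks granule cells, was at -0.49 (adjusted p = 3.28e-04), *Npnt* at -0.69 (adjusted p = 8.40e-05) and *Dsp*, which encodes desmoplakin, at -1.07 (adjusted p = 3.28e-04), all by edgeR after Benjamini-Hochberg adjustment. All 6 tested choroid plexus genes had negative values and 2 were called lower, *Ttr* (transthyretin) at -3.07 (adjusted p = 0.0026) and *Enpp2* at -0.86 (adjusted p = 0.0090) in the same test. Of 8 genes of forebrain glutamatergic neurons 1 was called lower, *Neurod6*, which is the Cre locus, at -0.90 (adjusted p = 0.0090, edgeR). These calls rest on the surrogate variables. Without them 0 of the 7 list genes called for genotype passed, with *Prox1* at -0.73 (adjusted p = 0.68), *Npnt* at -0.94 (0.57), *Dsp* at -1.41 (0.076), *Ttr* at -0.83 (0.91), *Enpp2* at -0.54 (0.87) and *Neurod6* at -0.86 (0.17, edgeR), and with a mouse left out from 2 to 7 of the 7 passed. For the 8 further CA1 genes (among them *Lefty1*, *Ndst4*, *Calb1*, *Nov*, *Dcn*, *Grp* and *Gpc3*) the median was -0.08 and 0 were called, while 2 had an unadjusted p under 0.05. These were *Ndst4* at -0.56 (adjusted p = 0.0246 by edgeR), which would pass an FDR of 0.05, and *Grp* at -0.38 (adjusted p = 0.39). Their values without surrogate variables are not given here. No gene was called in the lists for CA2 and CA3 (14 genes), the thalamus (9 of 10 tested), interneurons, neocortex layers, astrocytes, oligodendrocytes, microglia or endothelium. An unadjusted p under 0.05 for genotype was found in 11.5% of all tested genes. It was found in 4 of 14 CA2 and CA3, 6 of 9 thalamic, 2 of 8 interneuron and 2 of 6 oligodendrocyte genes. Astrocytes, microglia and endothelium had 1 such gene each, and neocortex layers had 0. Of the lists with calls, 9 of 10 dentate gyrus, 6 of 6 choroid plexus and 2 of 8 forebrain glutamatergic genes had such a p.

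No difference between groups was called in these genes, while single mice differed widely. Over the 24 mice the highest level was 40.7 times the lowest in *Fibcd1*, 11.3 times in *Spink8*, 10.4 times in *Pou3f1*, 8.65 times in *Mpped1*, 3.89 times in *Man1a* and 1.89 times in *Wfs1*. The SD between mice of a group was 1.02 on the log2 scale in *Fibcd1*, and 76 of the 16209 tested genes had a larger one. It was 0.77 in *Pou3f1*, 0.74 in *Mpped1* and 0.71 in *Spink8*, and 205, 244 and 299 genes exceeded these, while the median gene had 0.18. These 4 genes therefore belonged to the most variable genes in the table. *Man1a* had 0.41 and *Wfs1* 0.27, exceeded by 2244 and 5004 genes. Leaving out mouse 8 lowered the SD to 0.72 in *Fibcd1*, 0.63 in *Pou3f1*, 0.63 in *Mpped1*, 0.49 in *Spink8* and 0.31 in *Man1a*, beside 0.28 in *Wfs1*. *Fibcd1*, *Pou3f1*, *Mpped1* and *Spink8* were then still above 98.4%, 97.2%, 97.3% and 92.9% of tested genes.

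**Figure D3:**
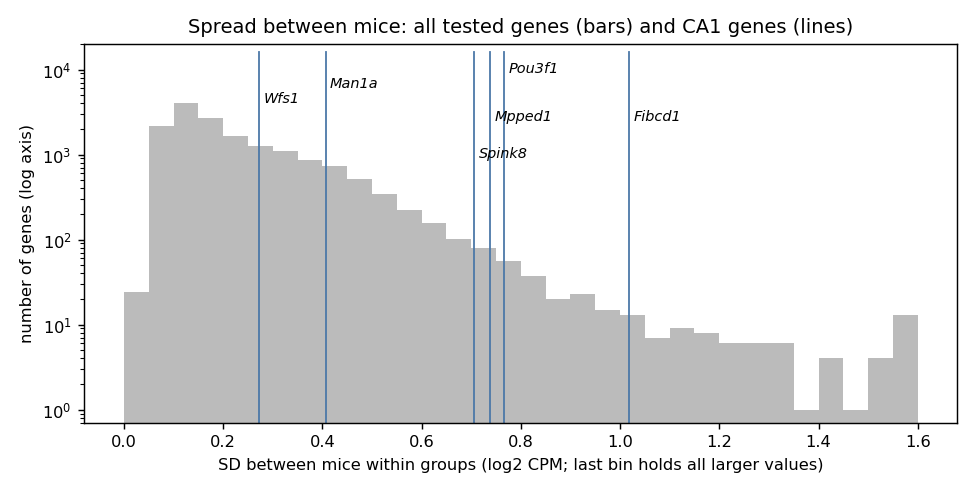
Grey bars count all tested genes by the SD of log2 CPM between mice within groups (logarithmic vertical axis, bins of equal width), and lines mark the 6 genes. *Fibcd1*, *Pou3f1*, *Mpped1* and *Spink8* sit in the upper tail at 1.02, 0.77, 0.74 and 0.71, and *Wfs1* at 0.27 lies among the bulk of genes.

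Group membership accounted for 26.5% of the variance of *Spink8* over the 24 mice, 16.6% for *Fibcd1*, 13.8% for *Pou3f1*, 12.4% for *Man1a*, 9.84% for *Mpped1* and 5.04% for *Wfs1*, against a median of 10.2% over all tested genes. Without mouse 8 the shares were 16.1% for *Spink8*, 15.4% for *Fibcd1*, 6.50% for *Pou3f1*, 2.54% for *Man1a*, 7.19% for *Mpped1* and 4.22% for *Wfs1*, with a median of 9.89%. The 5 surrogate variables carried 87.1% of the variance within groups of *Mpped1*, 85.0% of *Spink8* and 79.9% of *Fibcd1*. They carried 66.4% of *Man1a*, 56.8% of *Wfs1* and 54.5% of *Pou3f1*, where the median gene had 56.8%.

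The spread was not specific to these 6 genes. The median SD between mice within groups was 0.72 over the 6 genes, 0.80 over the 8 further CA1 genes, 0.70 over 10 dentate gyrus genes, 0.44 over 14 CA2 and CA3 genes and 0.78 over 9 thalamic genes, all on the log2 scale. It was 1.78 over 6 choroid plexus genes and 0.64 over 6 oligodendrocyte genes. Genes of forebrain glutamatergic neurons in general (median 0.20), of interneurons (0.26) and of microglia (0.25) varied far less, with medians nearer to that of all tested genes (0.18).

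Whether the genes varied together was examined on deviations from the group means over the 24 mice, with 100000 permutations within groups for each of the 15 pairs and Benjamini-Hochberg adjustment over them. In 6 pairs the adjusted p was under 0.05. *Fibcd1* and *Mpped1* had Pearson's r = 0.91 and Spearman's rho = 0.86 (adjusted p = 7.5e-05 and 0.00015), and r was 0.87 once the 2 mice farthest from the *Fibcd1* median were left out. *Pou3f1* and *Mpped1* had r = 0.88 and rho = 0.84 (adjusted p = 7.5e-05 and 0.00015), and r = 0.78 without the 2 farthest mice. For these pairs the raw permutation p of r was 1e-05, the smallest that the permutations can give. *Pou3f1* and *Man1a* had r = 0.85 and rho = 0.78 (adjusted p = 1e-04 and 0.0009; r = 0.76 without the 2 farthest mice). *Mpped1* and *Man1a* had r = 0.78 and rho = 0.73 (adjusted p = 0.00048 and 0.0009; r = 0.66). *Fibcd1* and *Pou3f1* had r = 0.80 and rho = 0.61 (adjusted p = 0.00048 and 0.0127; r = 0.59). These 5 pairs also passed without mouse 8, where r was 0.89, 0.82, 0.75, 0.67 and 0.66 in the order given. With the surrogate variables regressed out as well, *Fibcd1* and *Mpped1* (r = 0.83), *Pou3f1* and *Mpped1* (0.89), *Pou3f1* and *Man1a* (0.72) and *Fibcd1* and *Pou3f1* (0.69) passed, but *Mpped1* and *Man1a* did not (r = 0.52, adjusted permutation p = 0.0645). The permutations did not allow for the surrogate variables, so permutation p-values with these regressed out can be too small, here and below.

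The sixth pair, *Fibcd1* and *Man1a*, rested on mouse 8. It had r = 0.70 (adjusted permutation p = 0.0158) and rho = 0.46 (adjusted p = 0.0913), but r = 0.40 without mouse 8 (adjusted p = 0.18) r = 0.40 without the 2 farthest mice and r = 0.33 with the surrogate variables regressed out. The pairs of *Spink8* behaved the same way. With *Fibcd1* it had r = 0.61 (adjusted permutation p = 0.0952), with *Man1a* 0.60 (0.107), with *Pou3f1* 0.54 (0.109) and with *Mpped1* 0.44 (0.161). Without mouse 8 these fell to 0.17, 0.20, 0.17 and 0.07. *Spink8*, which was among the most variable of the 6, thus did not follow *Fibcd1* and *Mpped1* over the other mice. *Wfs1* had r between -0.06 (*Spink8*) and 0.39 (*Mpped1*) with the other genes, and no pair of it passed (adjusted permutation p from 0.109 to 0.80).

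**Figure D4:**
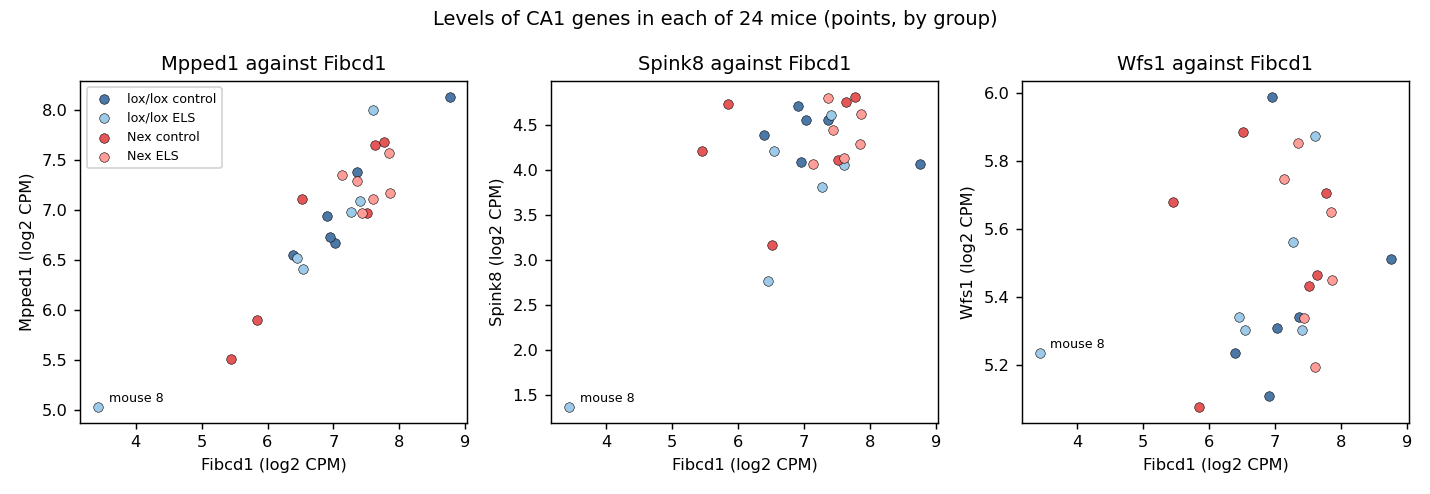
Log2 CPM of *Mpped1*, *Spink8* and *Wfs1* against *Fibcd1* in each of the 24 mice, coloured by group. *Mpped1* rises with *Fibcd1* over the whole range (r = 0.91 on deviations from group means), the slope of *Spink8* depends on mouse 8 (r = 0.61, and 0.17 without it), and *Wfs1* shows little relation (r = 0.25).

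Relations with the further CA1 genes were tested in the same way, and 20 of 48 had an adjusted permutation p under 0.05. With the surrogate variables regressed out 14 did, of which 9 were among the 20. Of the rest, *Spink8* and *Lefty1* had r = 0.67 (adjusted permutation p = 0.0149), and the others were negative. These were *Man1a* and *Gpc3* (r = -0.68, adjusted permutation p = 0.0077) and *Wfs1* and *Grp* (-0.56, 0.0262). *Spink8* and *Grp* (-0.59, 0.0253) and *Fibcd1* and *Calb1* (-0.59, 0.0259) were negative as well. *Lefty1*, a secreted inhibitor of Nodal signalling, had r = 0.95 with *Pou3f1* (rho = 0.93), 0.87 with *Man1a* (rho = 0.85) and 0.79 with *Mpped1* (rho = 0.73). These 3 relations passed with and without mouse 8, and with the surrogate variables regressed out (r = 0.95, 0.75 and 0.76). *Nov*, which encodes a secreted matrix-associated protein, had r = 0.84 with *Mpped1* and 0.83 with *Fibcd1*, falling to 0.77 and 0.66 without mouse 8. *Dcn*, which encodes the proteoglycan decorin, had r = 0.79 with *Mpped1* and 0.75 with *Fibcd1*, and *Grp*, which encodes gastrin-releasing peptide, 0.80 and 0.68 with the same genes. These 6 relations did not pass with the surrogate variables regressed out, where r with *Mpped1* and *Fibcd1* was 0.23 and 0.14 for *Nov*, 0.073 and 0.056 for *Dcn*, and -0.029 and 0.16 for *Grp* (adjusted permutation p from 0.51 to 0.94). *Lefty1* with *Fibcd1* (r = 0.68) and *Nov* with *Pou3f1* (r = 0.69) passed with all mice but not without mouse 8, where r was 0.49 (adjusted permutation p = 0.0946) and 0.48 (0.126). Over all mice, with the surrogate variables not regressed out, *Wfs1* passed with *Nov* (r = 0.53, rho = 0.61, adjusted permutation p = 0.0228 and 0.0066). *Spink8* passed with none of the 8 there, and *Calb1* and *Ndst4* passed with no member. With *Fibcd1*, *Pou3f1* and *Mpped1*, *Calb1* had r = -0.034, 0.044 and 0.26, and *Ndst4* 0.13, 0.34 and 0.46. Without mouse 8 both passed with *Mpped1* (r = 0.64 and 0.67, adjusted permutation p = 0.0222 and 0.0203). *Calb1* then also passed with *Wfs1* (r = 0.57), and *Ndst4* with *Man1a* (r = 0.66).

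Correlations with the mean z-score of each marker list were then computed, 72 in all, of which 13 had an adjusted permutation p under 0.05. Most of these did not hold with the surrogate variables regressed out, where 6 of 72 passed, 2 of them among the 13, and 4 of the 13 changed sign. The rest of the 6 had not passed before. They were endothelium with *Mpped1* (r = 0.82, adjusted permutation p = 0.0022) and with *Fibcd1* (0.70, 0.0182). Astrocytes with *Fibcd1* (0.68, 0.02) and CA2 and CA3 genes with *Spink8* (0.59, 0.0292) completed them. The further CA1 list had r = 0.92 with *Mpped1* (rho = 0.93, adjusted permutation p = 0.00072 for both), 0.76 with *Fibcd1* (rho = 0.80), 0.71 with *Pou3f1* (rho = 0.71) and 0.64 with *Man1a* (rho = 0.65). With the surrogate variables regressed out r was 0.61 with *Mpped1* (adjusted permutation p = 0.0436), and the other 3 did not pass, at 0.41, 0.44 and 0.24. The list had 0.49 with *Wfs1* and 0.18 with *Spink8*, neither of which passed. The thalamus list, of which 9 of 10 genes were tested and *Gbx2* was at 0 reads in some mice, ran in the opposite direction. It had r = -0.72 with *Man1a* (rho = -0.69, adjusted permutation p = 0.0119 and 0.02), -0.68 with *Mpped1* (rho = -0.63, 0.0119 and 0.02) and -0.59 with *Fibcd1* (rho = -0.45, 0.0388 and 0.15). Without mouse 8 these were -0.65, -0.59 and -0.45, and the last no longer passed (adjusted permutation p = 0.124). The summed level of all 10 listed thalamic genes, *Gbx2* included, ran from 59.0 to 106.0 CPM in Fkbp5lox/lox controls, from 66.6 to 338.9 in Fkbp5lox/lox ELS mice, from 66.9 to 206.2 in Fkbp5Nex controls and from 70.0 to 276.5 in Fkbp5Nex ELS mice. With the surrogate variables regressed out none of the 3 relations passed, and r was -0.24 with *Man1a*, 0.16 with *Mpped1* and 0.19 with *Fibcd1* (adjusted permutation p = 0.64, 0.78 and 0.68). The part of these markers in the group values was not tested.

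Oligodendrocyte genes, which mark white matter, had r = -0.61 with *Mpped1* (rho = -0.62, adjusted permutation p = 0.0388 and 0.034) and -0.54 with *Man1a* (rho = -0.67, 0.0388 and 0.011). Without mouse 8 they were -0.73 and -0.74, but with the surrogate variables regressed out 0.30 and -0.22, and neither passed (adjusted permutation p = 0.60 and 0.68). Their summed level over 6 genes ran from 1439 to 6464 CPM over all mice. The interneuron list had r = 0.71 with *Fibcd1* (rho = 0.76, adjusted permutation p = 0.0084 and 0.0019), and the endothelium list 0.65 with *Pou3f1* (rho = 0.71, 0.0144 and 0.0107). With the surrogate variables regressed out these were 0.51 (adjusted permutation p = 0.18) and 0.79 (0.0029). *Spink8* had r = 0.66 with the genes of forebrain glutamatergic neurons (rho = 0.62, adjusted permutation p = 0.0095 and 0.0227), which was 0.70 without mouse 8 and 0.58 with the surrogate variables regressed out (adjusted permutation p = 0.0617). It had r = -0.65 with the dentate gyrus list (rho = -0.38, adjusted permutation p = 0.0421 and 0.26), and -0.50 without mouse 8 (adjusted p = 0.145), but 0.52 with the surrogate variables regressed out (adjusted p = 0.0617). The summed level of the 10 dentate gyrus genes ran from 362.1 to 586.2 CPM in Fkbp5lox/lox controls, from 302.6 to 1114 in Fkbp5lox/lox ELS mice, from 185.7 to 830.7 in Fkbp5Nex controls and from 208.2 to 592.0 in Fkbp5Nex ELS mice. *Wfs1* passed with no list. Without mouse 8, *Mpped1* also passed with CA2 and CA3 genes (r = -0.65, adjusted permutation p = 0.0385) and with the choroid plexus list (r = -0.67, 0.0241), where it had r = -0.45 and -0.41 over all mice.

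**Figure D5:**
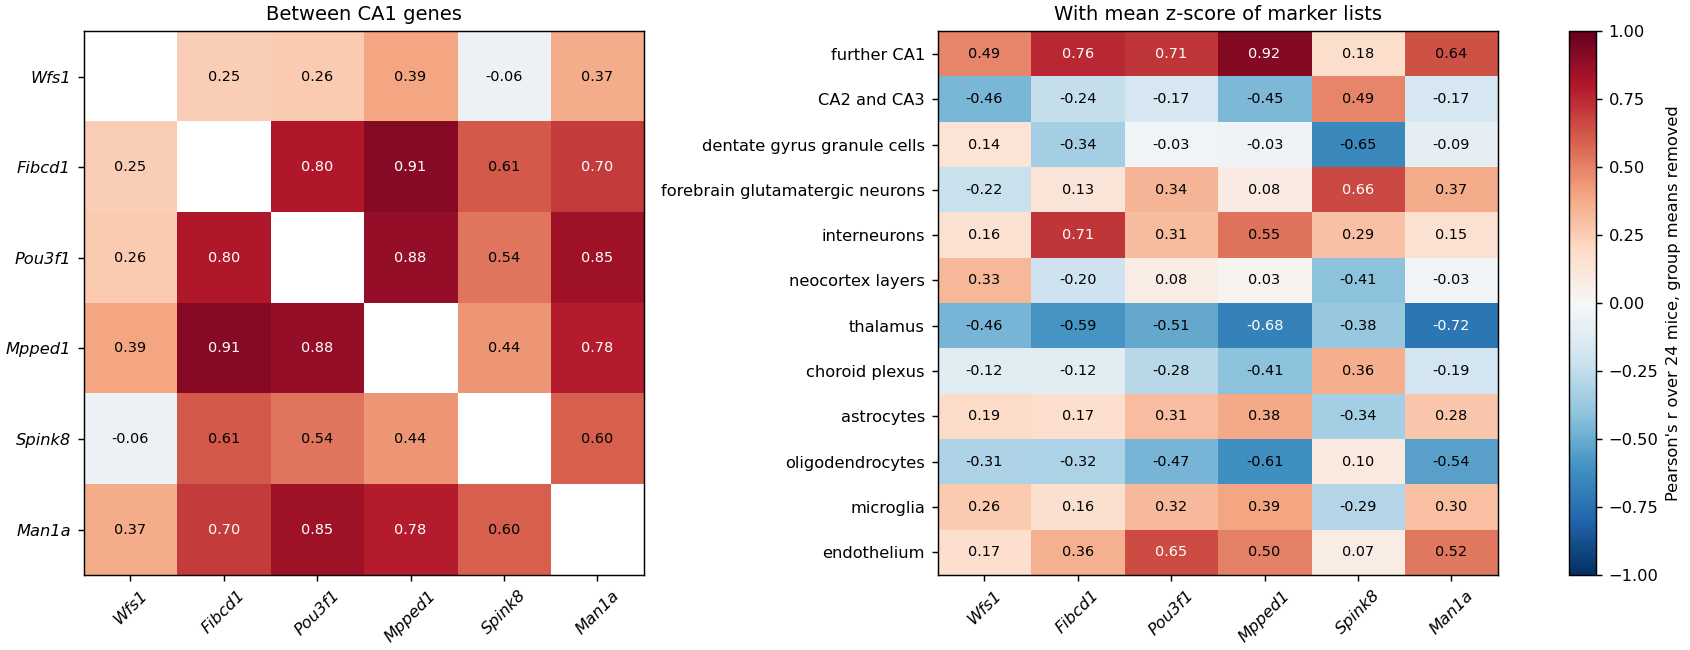
Pearson's r over 24 mice after removal of group means, between the 6 genes (left) and with the mean z-score of marker gene lists (right), from blue (negative) to red (positive). *Fibcd1*, *Pou3f1*, *Mpped1* and *Man1a* form a block with r from 0.70 to 0.91, in which *Fibcd1* and *Man1a* fall to 0.40 without mouse 8, *Wfs1* has no r above 0.39 with the others, and the thalamus row is negative for all 6 genes.

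Among all 16208 other tested genes, those most like each member were found by Pearson's r on the same deviations. This is a description over 24 mice, mouse 8 included, and all genes of a mouse share its library and dissection. The gene most like *Fibcd1* was *Mpped1* (r = 0.91), followed by *Pde11a*, a cyclic nucleotide phosphodiesterase, and *Hrh3*, a histamine receptor (r = 0.88 each). The reverse held too, and *Mpped1* was most like *Fibcd1*, with *Cadps2*, a priming factor of dense-core vesicles (r = 0.90), also among its nearest 3. *Pou3f1* was most like *Lefty1* (r = 0.95), with *Efcab6* (0.90) also among its nearest 3. *Man1a* was most like *Plk2*, a polo-like kinase induced by neuronal activity (r = 0.89), *Lefty1* (0.87) and *Cpne8* (0.85), and *Pou3f1* had rank 4. These 4 genes thus had each other, or further CA1 genes, among their nearest patterns, with the other 3 at ranks from 1 to 114 of 16208.

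*Spink8* and *Wfs1* had no member or further CA1 gene among their nearest. *Spink8* was most like *Rasl11b*, a small GTPase (r = 0.94, rho = 0.92), *Sh3rf1*, a ubiquitin ligase (r = 0.90, rho = 0.74), and the keratin gene *Krt73* (r = 0.90, rho = 0.77), while *Fibcd1* ranked 464 for it. *Wfs1* was most like *Plxnd1*, a semaphorin receptor (r = 0.81), *5031414D18Rik* (0.80) and *Crip2*, a LIM domain protein (0.76), while *Mpped1*, the nearest member, ranked 941. The median r over the 15 pairs of the 6 genes was 0.60, beside 0.82 over the 45 pairs of dentate gyrus genes, 0.83 over the 36 pairs of thalamic genes, 0.98 over the 15 pairs of oligodendrocyte genes and 0.14 over the 91 pairs of CA2 and CA3 genes. The lowest pair of the 6 genes had r = -0.06, while every pair of dentate gyrus, thalamic or oligodendrocyte genes was above 0.24. These medians and lowest values include mouse 8, and medians without it are not given here. Pairs of the 6 genes were lower without it in part, with *Wfs1* and *Spink8* at r = -0.28 and *Mpped1* and *Spink8* at 0.07.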

How the data were processed

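Hippocampal punches of 24 female mice were sequenced, and the table that the authors deposited holds raw counts of reads for each gene, without normalization. Before that, reads with adaptors, poly-N or low quality were removed, and read pairs were aligned with HISAT2 2.0.5 and counted with featureCounts 1.5.0-p3. Genome build, annotation, strandedness and handling of multimapping reads are not given in the sources used here. The study left out a library by principal component analysis of a larger set. All 24 deposited libraries were used here. Groups and mouse numbers came from the labels, which name no batch, so nothing was recomputed within batches. Median depth was 21385946.5 reads (range 18347283 to 26555623).

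A gene was tested if each mouse of 1 or more groups had 10 counts or more (16209 of 46983 genes). The edgeR 4.0.16 quasi-likelihood test (R 4.3.3) used TMM scaling, a mean per group and 5 surrogate variables from svaseq (sva 3.50.0, number by num.sv, method be), with Benjamini-Hochberg adjustment over all tested genes at an FDR of 0.02. Groups explained from 2.97% to 24.0% of the variance of the surrogate variables, which are thus not free of the groups. Levels are TMM CPM. The log2 CPM values have a prior count of 2. Per-kilobase levels used vM21 exon lengths in place of the deposited gene length that had been planned, since the count table pairs genes with no length. Correlations used deviations from group means and 100000 two-sided permutations within groups (numpy 2.4.6, scipy 1.17.1, pandas 2.3.3, matplotlib 3.10.9, Python 3.11.15). Where surrogate variables were regressed out, the permutations allowed for the group means but not for those variables. The p-values and the counts that passed there carry this limit. Permutation p-values measure the spread between mice within groups. P-values and intervals of the fits with surrogate variables measure the spread left after these variables. The variables were estimated from the same counts and taken as known. The paper states that whole litters were assigned to ELS or control. The litters of these mice are not given, so mice of a litter were treated as independent.

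Named were the 6 genes, *Fkbp5* and *Neurod6*, for each member the 3 genes with the highest r, and from each marker list at most 3 genes past the threshold. An item that falls under this rule is not reported here. Further CA1 genes named for correlations or for genotype were chosen after their values were seen. Members and lists were chosen with earlier results of these data known. *Ccn3* is listed in the table as *Nov*. Alternatives were a fit without surrogate variables, size factors of DESeq2, filterByExpr, no filter, DESeq2's Wald test (DESeq2 1.42.0), an FDR of 0.05, each mouse left out, other scalings and other deviations. Correlations without mouse 8, those of further CA1 genes on raw values, those of lists and further CA1 genes with surrogate variables regressed out, and the named list genes under each alternative were added after the data were seen.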

Additional observations from a re-analysis of the deposited data

Results flagged for a closer look

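*Fibcd1* in Fkbp5lox/lox ELS mouse 8, at 10.7 CPM from 288 reads, lay far below the other mice of its group, which had from 87.2 to 194.9 CPM. On the log2 scale the gap to the nearest mouse took up 0.722 of the whole range of the group, above Dixon's 95% critical value for 6 mice. It was the only sample set apart in this way among the 24 combinations of gene and group examined, of which about 1 in 20 would be so by chance. The same mouse had the lowest level of all 24 in *Pou3f1* (3.52 CPM), *Mpped1* (32.5 CPM), *Spink8* (2.48 CPM) and *Man1a* (17.1 CPM), and the highest scores for dentate gyrus and thalamic genes. The part of these in its low values was not tested.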

How the results depend on the processing

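No member was called under any alternative, and the smallest adjusted p of a member in any of them was 0.36 (*Mpped1* for genotype, without Fkbp5lox/lox control mouse 44). Over the whole table, 19 genes were called for genotype, against 3 without surrogate variables, 70 by DESeq2's Wald test, 50 at an FDR of 0.05 and 4 to 32 with a mouse left out. For ELS the count of 0 became 1 without a filter on low counts and lay between 0 and 1 with a mouse left out, and for ELS in Fkbp5Nex mice it did the same. DESeq2's Wald test called 1 gene for ELS in Fkbp5lox/lox mice. Without surrogate variables, 11 of the 30 log2 fold changes of members changed sign: for genotype *Fibcd1* (0.13), *Pou3f1* (0.11) and *Mpped1* (0.082), for ELS *Fibcd1* (-0.029), *Pou3f1* (-0.088) and *Mpped1* (-0.0091), for the interaction *Wfs1* (0.012) and *Man1a* (-0.15), for ELS in Fkbp5lox/lox mice *Mpped1* (-0.26) and *Man1a* (-0.23), and for ELS in Fkbp5Nex mice *Wfs1* (-0.0049). With a mouse left out, 73 of 720 values changed sign, the cause of which was not tested. *Man1a* ran from -0.15 to 0.13 for genotype, -0.18 to 0.041 for ELS, -0.26 to 0.26 for the interaction, -0.27 to 0.080 for ELS in Fkbp5lox/lox and -0.20 to 0.15 in Fkbp5Nex mice. *Pou3f1* ran from -0.27 to 0.092 for genotype, -0.13 to 0.22 for ELS and -0.52 to 0.036 for ELS in Fkbp5lox/lox mice. *Fibcd1* ran from -0.44 to -0.10 for genotype and -0.30 to -0.0011 for ELS in Fkbp5lox/lox mice, with no change of sign. *Spink8* ran from -0.90 to -0.19 for the interaction, -0.73 to -0.17 for ELS in Fkbp5lox/lox mice, -0.17 to 0.18 for genotype and -0.080 to 0.31 for ELS in Fkbp5Nex mice, *Wfs1* from -0.066 to 0.12 for genotype and -0.15 to 0.20 for the interaction, and *Mpped1* from -0.097 to 0.17 for ELS in Fkbp5lox/lox mice. With surrogate variables regressed out, r changed sign for *Wfs1* and *Fibcd1* (-0.32), the thalamus list with *Fibcd1* (0.19) and *Mpped1* (0.16), oligodendrocytes and *Mpped1* (0.30), the dentate gyrus list and *Spink8* (0.52), and *Grp* with *Pou3f1* (-0.31), *Mpped1* (-0.029) and *Man1a* (-0.54). The relations with lists that passed then numbered 6 in place of 13, and pairs 4 in place of 6. The r of *Wfs1* and *Spink8* was 0.0017 without removal of group means. Of the 18 nearest genes, 9 were the same by Spearman's rho. Other scalings moved all 48 group means by less than 1 SD. The paper describes Fkbp5lox/lox mice as littermates of Fkbp5Nex mice, but the labels give no litters, so no analysis paired by litter was possible. The lowest level rests on 67 reads, and 6 mice per group with this spread leave wide intervals.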
